A study of Mus musculus with 20 samples.

Results

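DNA methylation was compared between differentiated colonic cells of SPF mice, taken to be specific-pathogen-free animals that carry a microbiota, and GF mice, taken to be germ-free, at 15 weeks of age. The comparison uses 6 of the 20 samples of the series, 2 SPF and 4 GF, chosen by their labels, and covers all 1195 regions of the authors' deposited table. All animals of the series were C57BL/6J mice of the genotype Lgr5EGFP-IRES-CreERT2. This knock-in at the stem cell gene Lgr5 marks Lgr5-expressing cells with green fluorescent protein and carries a tamoxifen-inducible Cre; SPF and GF groups share it. No tamoxifen treatment is given in the labels, and neither is how differentiated cells were separated from stem cells or whether a sample holds 1 animal or several. The other groups of the series are stem cells at 15 weeks (2 SPF and 4 GF) and both cell fractions at 3 weeks (2 samples in each of 4 groups). Whole-genome bisulfite sequencing reads methylation as the share of cytosines that resist conversion, and each value below is a methylation fraction from 0 to 1 over 1 region of 1 sample. The read depth behind a fraction is unknown, and a p-value speaks only of the scatter among these samples, which may be technical.

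The colonic epithelium is renewed from Lgr5-expressing stem cells at the crypt base, whose progeny differentiate into absorptive, goblet and other cells as they move up the crypt and are shed within days. Methylation of CpG sites is copied at cell division by the maintenance methyltransferase Dnmt1, so a pattern present in a stem cell can be passed to its progeny unless it is changed during differentiation. Low methylation at enhancers and promoters usually accompanies regulatory activity, and enhancers of differentiated epithelium are known to be accessible already in stem cells.

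The deposited difference of each region followed SPF minus GF stem cells (r = 0.888 over 1195 regions that share samples) more closely than SPF minus GF differentiated cells (r = 0.676), and the regions are treated here as chosen on stem cells. If so, a differentiated-cell value comes from samples that the choice did not use, although GF replicates 3 and 4 have stem cell samples of the same identifier. How the regions were chosen is not given. Had differentiated samples entered the choice, their calls would be partly fixed by it. A region is called lower in SPF differentiated cells where limma, fitted to all 20 samples, gave an adjusted p under 0.05 (Benjamini-Hochberg over the 1195 regions) and a negative SPF minus GF difference. Errors of differences are SEs from that fit, with n = 2 SPF and n = 4 GF.

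Sex labels were checked first, on the 2 regions of chromosome X that split the libraries most clearly. At the region next to the start of Pwwp3b (chrX:139210123-139210237), the 9 other libraries labelled male stood between 0 and 0.216 and the 8 other libraries labelled female between 0.255 and 0.542. At an intergenic region (chrX:50537259-50537396) the former reached 0.285 at most and the latter stood at 0.45 or above. The library labelled female as GF differentiated replicate 4 at 15 weeks stood at 0 and 0.0273, within the range of the libraries labelled male. Both GF differentiated libraries at 3 weeks also went against their sex labels. Of the libraries compared here only replicate 4 is touched, and without it 948 regions were lower in SPF against 964 (80.7%) with it. GF replicates 1 and 2 carry identifiers that end in Co, as the SPF samples do, and replicates 3 and 4 identifiers that begin with GFp. The labels do not say what the endings mean. Against the Co or the GFp libraries alone, 947 and 894 regions were lower.

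**Figure D1:**
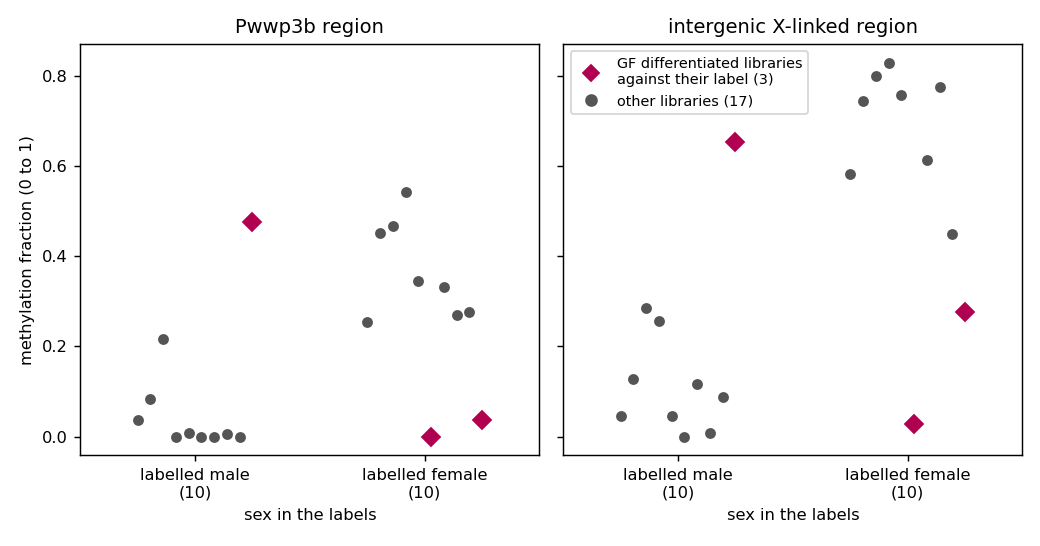
Methylation fraction (vertical axis, 0 to 1) at the Pwwp3b region (left) and the intergenic X-linked region (right) in all 20 libraries, by the sex in their labels, 1 point a library. The 3 GF differentiated libraries drawn as diamonds lie in the range of the other sex; in the intergenic region the other libraries labelled male reach 0.285 at most and those labelled female start at 0.45.

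Most regions were lower in SPF differentiated cells, and none was called higher. In stem cells SPF minus GF was negative in every region, from -0.656 to -0.145. If the regions were chosen by that difference, the choice favours the same direction in differentiated cells. Of 1195 regions 964 (80.7%) were lower and 0 higher by limma (977 and 0 at an unadjusted p under 0.05). The median SPF minus GF difference was -0.213, with the middle 50% of regions between -0.295 and -0.141. It was a fall of over 0.3 in 280 regions and of over 0.5 in 25. In 1012 regions (84.7%) both SPF values lay below all 4 GF values. Averaged over regions, the SPF libraries stood at 0.353 and 0.338 and the GF libraries at 0.569, 0.570, 0.567 and 0.560. The groups did not overlap, and the exact two-sided permutation p of 0.133 is the smallest that 2 against 4 samples allow.

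Almost all of these regions also carried the difference in stem cells, as a choice on stem cells would imply. Limma called 1162 regions (97.2%) lower in SPF stem cells at 15 weeks, and 961 of the 964 were among them. The remaining 201 regions were called in stem cells and not in differentiated cells. Being called in one fraction and not in the other does not show that the fractions differ, and the contrast of the 2 differences called 0 regions (66 at an unadjusted p under 0.05, smallest adjusted p 0.826, limma). Its 95% intervals reached a median of 0.149 to either side. Of the 66, the SPF minus GF difference was smaller in differentiated cells in 44 and larger in 22. Over all regions it was less negative in differentiated cells in 708 and more negative in 487. A choice of regions by their stem cell difference favours the former.

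**Figure D2:**
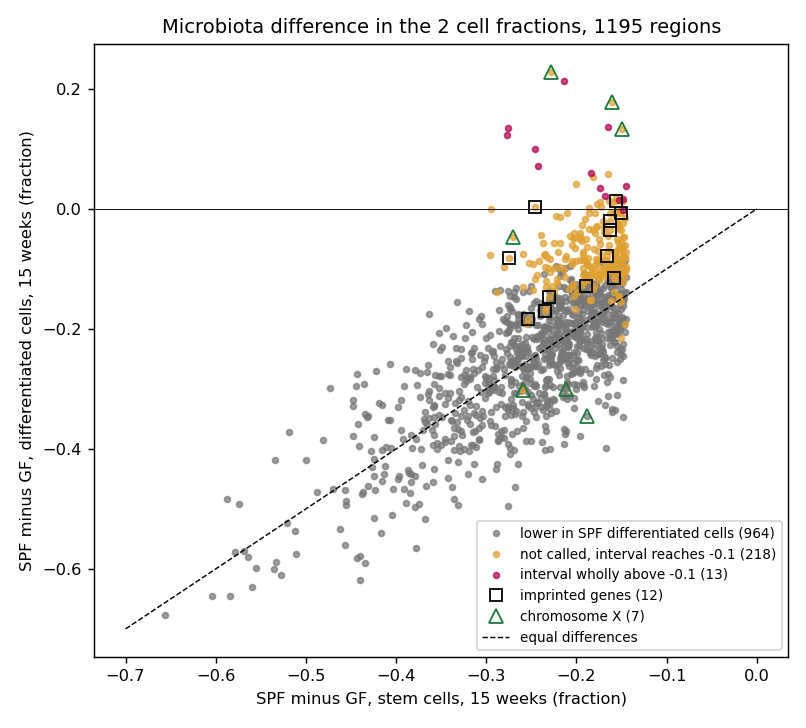
SPF minus GF difference in methylation fraction at 15 weeks in stem cells (horizontal axis) against differentiated cells (vertical axis), 1 point for each of 1195 regions, coloured by class, with regions at imprinted genes as squares and those on chromosome X as triangles; the dashed line marks equal differences. Grey points, the 964 regions lower in SPF differentiated cells, follow the line down to -0.677, and coloured points spread upwards at the right, where stem cell differences are smallest.

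Methylation is known only per region and not per CpG site. Positions of CpG sites can be shown at promoters, where RefSeq sequence was at hand for windows of 300 bases. These run from 250 bases before to 50 after a gene's start (GRCm38.p6, the same build as mm10). Such windows overlapped 26 regions, of which 20 were lower in SPF differentiated cells, against 80.7% of all regions. Below are the windows of 3 genes that were lower and of Igf2r, which was not called, each 5′ to 3′ on the gene's strand with CpG sites in capitals.
Ifitm3: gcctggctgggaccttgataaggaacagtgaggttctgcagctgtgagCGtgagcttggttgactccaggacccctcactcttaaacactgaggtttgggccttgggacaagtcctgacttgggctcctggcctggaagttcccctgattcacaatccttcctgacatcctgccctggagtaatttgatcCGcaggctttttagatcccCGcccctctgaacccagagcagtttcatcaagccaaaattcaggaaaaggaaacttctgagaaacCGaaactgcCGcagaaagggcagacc
Apobec3: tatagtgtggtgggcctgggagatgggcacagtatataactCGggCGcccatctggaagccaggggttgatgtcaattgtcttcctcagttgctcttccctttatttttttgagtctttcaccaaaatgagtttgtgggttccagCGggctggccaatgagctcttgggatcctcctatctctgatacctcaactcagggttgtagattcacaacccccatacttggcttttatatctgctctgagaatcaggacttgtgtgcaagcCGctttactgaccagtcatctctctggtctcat
Ptprj: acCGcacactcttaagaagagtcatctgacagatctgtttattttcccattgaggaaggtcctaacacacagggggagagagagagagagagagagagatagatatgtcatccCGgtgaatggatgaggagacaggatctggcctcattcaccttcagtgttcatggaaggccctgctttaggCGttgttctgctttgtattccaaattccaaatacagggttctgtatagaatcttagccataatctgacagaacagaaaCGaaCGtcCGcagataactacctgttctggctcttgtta
Igf2r: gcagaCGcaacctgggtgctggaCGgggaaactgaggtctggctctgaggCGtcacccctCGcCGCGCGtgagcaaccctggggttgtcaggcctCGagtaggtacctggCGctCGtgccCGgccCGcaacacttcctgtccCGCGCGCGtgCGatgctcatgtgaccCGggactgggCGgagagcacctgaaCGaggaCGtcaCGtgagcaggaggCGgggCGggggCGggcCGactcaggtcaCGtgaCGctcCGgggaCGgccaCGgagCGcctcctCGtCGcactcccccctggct
The Ifitm3, Apobec3 and Ptprj windows hold 5, 4 and 6 CpG sites, against a median of 7 over 32851 promoters, and the Igf2r window holds 34. Windows not printed do not follow that split. Those of Gm52825, at a region lower in SPF, hold 11 and 10, and that of 3300002A11Rik, not called, holds 4. The Ifitm3 window (chr7:141010695-141010994, minus strand) has the IRF motif GAAANNGAAA at bases 253 to 262 and 270 to 279, which do not overlap. No match to it was found in the Ptprj (chr2:90479125-90479424, minus strand), Apobec3 (chr15:79894773-79895072, plus strand) and Igf2r (chr17:12769657-12769956, minus strand) windows. Both strands were searched, and 3.44% of all promoters hold the motif. It also occurs in the windows of Gm35831 and Gm30827, at regions lower in SPF. A STAT motif, TTCNNNGAA, held by 8.3% of promoters, lies at bases 264 to 272 of the Ifitm3 window and 161 to 169 of the Ptprj window.

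At Ifitm3, which encodes a membrane protein that blocks virus entry, the region around the start (chr7:141010401-141011350) stood at 0.102 and 0.118 in SPF and at 0.316, 0.303, 0.407 and 0.298 in GF differentiated cells (difference -0.221 ± 0.052, limma adjusted p = 0.000834). At Apobec3, which encodes a cytidine deaminase that restricts retroviruses, the region (chr15:79894591-79895135) stood at 0.325 and 0.312 in SPF and at 0.566, 0.716, 0.771 and 0.796 in GF cells (-0.394 ± 0.057, limma adjusted p = 7.17e-06). Both SPF values lay below all GF values at both genes, and every CpG site of both windows lies inside the region measured. Ptprj, a receptor tyrosine phosphatase, had 4 regions. That of the window (chr2:90478428-90479807) stood at 0.487 and 0.457 against 0.701, 0.672, 0.760 and 0.668 (-0.228 ± 0.043), and 1 of the other regions of the gene was not called.

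Genes of antigen presentation held 10 regions at 8 genes, and SPF was lower in all 10, against 80.7% of all regions. The median difference was -0.351, against -0.213 over all regions. In stem cells these medians were -0.331 and -0.221, and all 10 regions were called there too. The largest difference of the whole table lay inside Ciita, the master activator of MHC class II genes (chr16:10490450-10491033). Ciita stood at 0.121 and 0.0866 in SPF and at 0.780, 0.800, 0.757 and 0.785 in GF cells (-0.677 ± 0.035, limma adjusted p = 5.04e-11). The groups lay far apart, with each within a range of less than 0.1. H2-Aa and H2-Ab1 encode the alpha and beta chains of a class II molecule. Near H2-Aa the SPF values were 0.176 and 0.151 and the GF values 0.798, 0.729, 0.660 and 0.770. The 2 regions at H2-Ab1 differed by -0.257 ± 0.044 and -0.160 ± 0.060. The second of these had the groups closest to each other on this list, with SPF at 0.483 and 0.436 and the lowest GF value at 0.513. On the class I side, Psmb8, a subunit of the immunoproteasome that cuts peptides for presentation, stood at 0.285 and 0.225 in SPF and at 0.642, 0.648, 0.723 and 0.763 in GF cells. Psmb9, another of its subunits, differed by -0.222 ± 0.046, and Nlrc5, an activator of class I genes, by -0.306 ± 0.046.

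Of the interferon response list 9 genes carried 12 regions, and SPF was lower in each of the 12 (median difference -0.265), against 80.7% of all regions. In stem cells the median difference of these regions was -0.292, and all 12 were called there too. The region shared by Ifi47, an interferon-inducible GTPase gene, and Olfr56 (chr11:49086705-49087358) stood at 0.0451 and 0.0819 in SPF and at 0.668, 0.763, 0.566 and 0.647 in GF cells (-0.598 ± 0.058, limma adjusted p = 6.87e-08). It overlaps a promoter-like element in the authors' annotation. Irf1, a transcription factor induced by interferon, had 2 regions that differed by unequal amounts. The larger, at chr11:53773336-53774766, stood at 0.2 and 0.186 against 0.775, 0.784, 0.765 and 0.728. The other, at chr11:53777531-53778859, stood at 0.434 and 0.417 against 0.733, 0.696, 0.692 and 0.588. The groups were separate in both. Irgm2, another interferon-inducible GTPase gene, had 3 regions, 1 of them shared with Igtp, with differences of -0.472 ± 0.043, -0.312 ± 0.044 and -0.141 ± 0.039. Irf9, a transcription factor of interferon signalling, stood at 0.554 and 0.535 in SPF and at 0.903, 0.839, 0.889 and 0.848 in GF cells at one of its regions (chr14:55604730-55605371).

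**Figure D3:**
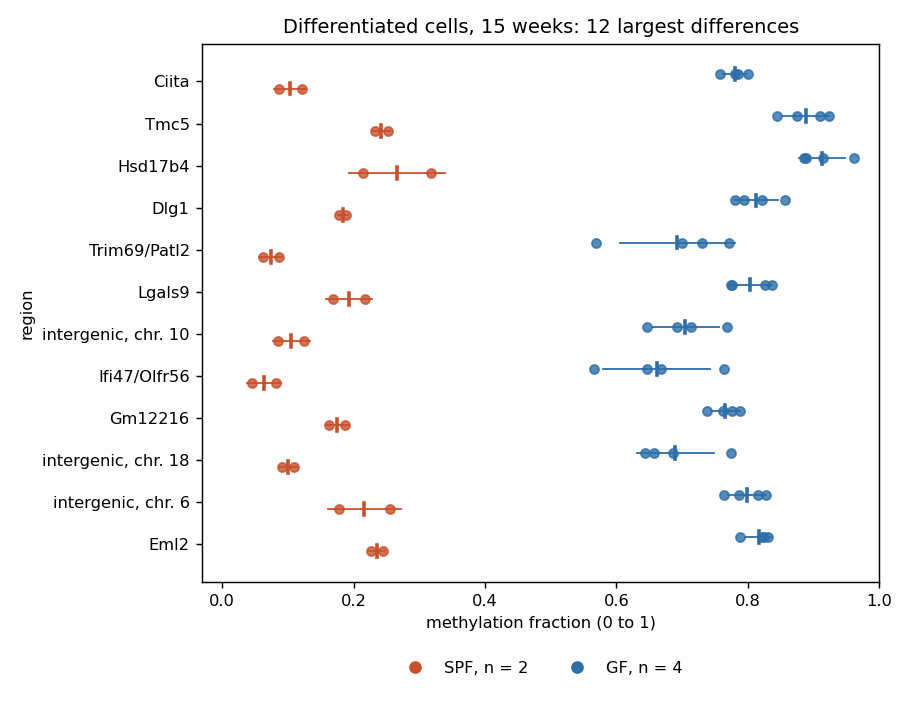
Methylation fraction (horizontal axis, 0 to 1) in differentiated cells at 15 weeks for the 12 regions with the largest SPF minus GF differences, largest at the top; points are samples (2 SPF and 4 GF), the short vertical line is the mean and the horizontal line the mean ± SD. In all 12 the SPF values lie far below the GF values, as at Ciita with SPF at 0.121 and 0.0866 and the lowest GF value at 0.757.

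Epithelial immune effector genes held 11 regions at 7 genes, again with SPF lower in every one (median -0.224), against 80.7% of all regions. Pla2g5, which encodes a secreted phospholipase A2, carried 4 of them. Its longest region (chr4:138834440-138836160, 40 CpG sites) stood at 0.312 and 0.180 in SPF and at 0.801, 0.811, 0.792 and 0.818 in GF cells (-0.559 ± 0.041), and the other regions of the gene differed by -0.223 ± 0.056, -0.218 ± 0.043 and -0.183 ± 0.043. Plet1, a surface protein of epithelial progenitors, had the region with the most CpG sites of the table (49, chr9:50494687-50498115). There SPF stood at 0.237 and 0.202 and GF at 0.748, 0.746, 0.822 and 0.697. Duoxa2, the maturation factor of the hydrogen peroxide producing oxidase Duox2, stood at 0.216 and 0.0991 against 0.618, 0.600, 0.650 and 0.647. Il22ra1, a subunit of the interleukin-22 receptor, differed by -0.370 ± 0.041. Pigr, the transporter of IgA into the gut lumen, differed by -0.171 ± 0.039. The alarmin gene Il33 differed by -0.220 ± 0.043. In each of these genes both SPF values lay below all GF values, as they did in 84.7% of all regions.

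Genes that were on none of the lists were among those farthest apart. Lgals9, which encodes the sugar-binding protein galectin-9, stood at 0.169 and 0.218 in SPF and at 0.837, 0.825, 0.776 and 0.774 in GF cells (chr11:78983258-78984342, -0.610 ± 0.048). Dlg1, a scaffold protein of cell polarity, stood at 0.178 and 0.189 against 0.793, 0.822, 0.781 and 0.856 near its start (chr16:31661743-31662797). Tmc5, a transmembrane protein gene, stood at 0.233 and 0.252 against 0.875, 0.924, 0.844 and 0.910 (chr7:118601377-118602239). Groups were separate by over 0.5 at these 3 genes. The cytokine gene Tnf had 2 regions, of which that at chr17:35200329-35200864 stood at 0.342 and 0.253 against 0.797, 0.766, 0.775 and 0.720, and that at chr17:35201454-35201703 differed by -0.372 ± 0.064. Tnfsf10, which encodes the death ligand TRAIL, differed by -0.332 ± 0.044 and -0.293 ± 0.040 at its 2 regions. Tnf and Tnfsf10 are named after their values were seen. Nox1, the main NADPH oxidase of colonic epithelium, held both regions of chromosome X that were called. They stood at 0.416 and 0.567 against 0.845, 0.851, 0.803 and 0.846, and at 0.358 and 0.506 against 0.742, 0.712, 0.798 and 0.680. Of the 7 regions of chromosome X these 2 (28.6%) were lower. An intergenic region (chrX:50621077-50621585, -0.302 ± 0.161) was not called (limma adjusted p = 0.0887). It was called lower with the compared groups alone (limma adjusted p = 0.029), without GF replicate 2 (limma adjusted p = 0.0298) and with sex as a covariate (limma adjusted p = 0.0441). That covariate follows the labels, against which GF replicate 4 and both GF differentiated libraries at 3 weeks went. At the intergenic region of the sex check the SPF values, 1 labelled male and 1 female, were 0.128 and 0.744.

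Genes of epithelial identity mostly kept the difference too, as did 80.7% of all regions. All 5 goblet cell and mucus regions were lower (median -0.244), as were all 5 at intestinal stem cell genes (median -0.188). At the transmembrane mucin gene Muc13 one region stood at 0.134 and 0.121 in SPF and at 0.340, 0.509, 0.541 and 0.521 in GF cells, and the other differed by -0.258 ± 0.059. The stem cell regions lay in Prom1 (-0.332 ± 0.065), Axin2 (-0.254 ± 0.049), Cd44 (-0.188 ± 0.047 and -0.174 ± 0.056) and Cdca7 (-0.144 ± 0.036). Both Cd44 regions lost their call without SPF replicate 1 (limma adjusted p = 0.0524 and 0.0595). On the tight junction, adhesion and barrier list 7 of 9 regions were lower (median -0.183). Of the lipid, bile acid and nuclear receptor list 9 of 11 were lower (median -0.246). There Elovl5, which elongates polyunsaturated fatty acids, differed by -0.494 ± 0.042 and -0.388 ± 0.050, and Lpin2, a phosphatidate phosphatase of lipid synthesis, by -0.337 ± 0.056. The Notch, absorptive colonocyte and DNA methylation lists held 1 region each, all called lower, at Jag1 (-0.160 ± 0.061), Ceacam1 (-0.216 ± 0.050) and Idh1 (-0.191 ± 0.058). The call at Jag1, a Notch ligand, was lost in 5 of the alternatives, with limma adjusted p up to 0.332 against the GFp libraries alone. That at Idh1, an enzyme of isocitrate metabolism, was lost without SPF replicate 2 (limma adjusted p = 0.0608). No region lay at a gene of the circadian, enteroendocrine and tuft or immune cell marker lists.

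Markers of non-epithelial cells held 3 regions, and all were lower in SPF cells, against 80.7% of all regions. They lay in Vwf (-0.375 ± 0.058) and Pecam1 (-0.291 ± 0.053), both endothelial, and in the smooth muscle gene Acta2 (-0.166 ± 0.055), whose call was lost without SPF replicate 2 (limma adjusted p = 0.311). Vwf stood at 0.124 and 0.163 in SPF and at 0.594, 0.474, 0.556 and 0.451 in GF cells. With no expression data used here, the cell makeup of the samples could not be checked against markers, and its part in any difference was not tested.

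The counts of these lists stand beside a background of 80.7% over all regions, and with 1 to 12 regions a list none is set apart by its count. Some genes had both called and uncalled regions, and regions of a gene were not tested against each other. Of 666 genes that the table names, 512 had every region lower in SPF differentiated cells, 32 had some and 122 had none, and 653 of the names matched a RefSeq symbol. Of the 99 genes with 2 or more regions 61 had all, 32 some and 6 none. With 80.7% of all regions called, mixed genes would arise even if calls fell independently. These counts are not read as a trait of the genes. Aopep, an aminopeptidase gene, had 7 of 8 regions lower, from -0.382 ± 0.042 at chr13:63247341-63248831 to -0.127 ± 0.053, the last of which lost its call in 6 of the alternatives. At its remaining region (chr13:63279339-63279723) SPF stood at 0.0808 and 0.0813 and GF at 0.0825, 0.124, 0.0980 and 0.161 (-0.0354 ± 0.0377). In stem cells the same region had means of 0.118 in SPF and 0.3 in GF mice. Frmd4b, a scaffold protein gene, had 4 of 5 regions lower, from -0.469 ± 0.051 to -0.215 ± 0.061, and the fifth at -0.0722 ± 0.0465. Gm20388, a long gene model that overlaps Irf8, Zfpm1 and others, had 7 of 11, from -0.306 ± 0.051 to 0.0530 ± 0.0752. Eps8, which caps and bundles actin in microvilli, had 3 of 5. Its called regions differed by -0.323 ± 0.037, -0.256 ± 0.043 and -0.144 ± 0.049. The others stood at -0.166 ± 0.076 (limma adjusted p = 0.0505) and -0.0922 ± 0.0428 (limma adjusted p = 0.0539), with SPF below all GF values in both. By limma both were called with the compared groups alone (adjusted p = 0.00673 and 0.0447). The former was also called with sex as a covariate (adjusted p = 0.0446) and without GF replicate 1 (adjusted p = 0.0392). The call at -0.144 was lost against the GFp libraries (adjusted p = 0.108) and without SPF replicate 2 (adjusted p = 0.0846).

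The difference was not called in 231 regions. In 218 of them the 95% interval of the difference reached -0.1, and they remain undecided. In 13 it lay wholly above -0.1, so a fall of that size was outside the interval; with the compared groups fitted alone 26 regions did, and without SPF replicate 2 only 8. The 231 regions were shorter than the called ones (median 380 against 549 bp) and had larger SEs (0.0606 against 0.0487) and a smaller stem cell difference (-0.177 against -0.234). Split into 4 nearly equal sets by the stem cell difference, 98.3%, 87.0%, 77.2% and 60.2% of regions were lower in SPF differentiated cells, from the largest fall to the smallest. Split in the same way by length, the shares were 62.8%, 83.3%, 86.5% and 90.3% from shortest to longest. By the authors' annotation of candidate regulatory elements, 15 of 24 regions at promoter-like elements (62.5%) and 357 of 421 at distal enhancer-like elements (84.8%) were lower. Shares inside gene bodies (79.9%), between genes (82.0%) and near starts (80.0%) were alike.

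Cep85, which encodes a centrosomal protein, had both of its regions among the 13. At chr4:134159924-134160077 SPF stood at 0.631 and 0.361 and GF at 0.409, 0.322, 0.371 and 0.487 in differentiated cells (0.099 ± 0.073), whereas SPF minus GF was -0.246 in stem cells. The difference of the differences was 0.345 ± 0.104 (unadjusted p = 0.00345, limma, adjusted p 0.826 or above). The groups overlapped, and the SPF values lay far apart. Without SPF replicate 2 this Cep85 region was called higher in SPF (0.234, limma adjusted p = 0.0219). Dand5, which encodes an extracellular antagonist of Nodal and BMP ligands, stood at 0.480 and 0.510 in SPF and at 0.506, 0.302, 0.469 and 0.420 in GF differentiated cells (0.071 ± 0.067) against -0.243 in stem cells (chr8:84831602-84831823). Ppp1r3d, a glycogen-targeting subunit of protein phosphatase 1, was the only region where both SPF values, 0.285 and 0.257, lay above all GF values, 0.205, 0.202, 0.122 and 0.0127. Its difference of 0.136 ± 0.089 was not called (limma adjusted p = 0.158), but it was with the compared groups fitted alone (0.042) and against the GFp libraries (0.045). At Rab3c, a small GTPase gene of vesicle release, SPF stood at 0.526 and 0.872 and GF at 0.556, 0.588, 0.530 and 0.268. Its difference of 0.213 ± 0.121 was not called, but it was against the GFp libraries (0.3, limma adjusted p = 0.0396) and without SPF replicate 1 (0.386, limma adjusted p = 0.0273). Against the GFp libraries an intergenic region (chr13:60179496-60179543) was called higher as well (limma adjusted p = 0.0192). Another intergenic region (chr1:63260781-63261262) had close replicates, with SPF at 0.483 and 0.506 and GF at 0.490, 0.435, 0.448 and 0.465.

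**Figure D4:**
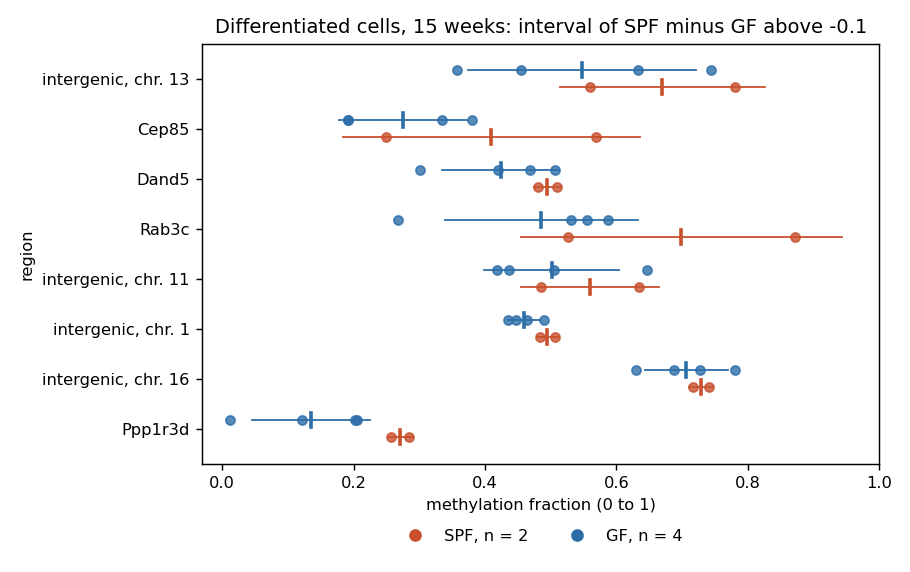
Methylation fraction (horizontal axis, 0 to 1) in differentiated cells at 15 weeks for the 8 regions with the largest stem cell difference, 1 a gene, among those with the 95% interval of SPF minus GF wholly above -0.1; points are samples (2 SPF and 4 GF), the short vertical line is the mean and the horizontal line the mean ± SD. SPF means lie above GF means in all 8, a direction that the choice by the interval favours, and the groups overlap in all but Ppp1r3d.

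Among genes with 2 or more regions, 6 had none called, namely Cacng2, Ccdc12, Cep85, Peg10, Sgce and Tcf7l2. Both regions of Sgce are also counted for Peg10. Tcf7l2 encodes the main transcription factor of Wnt signalling in the gut. Its region at chr19:55863493-55863819 stood at 0.0472 and 0.0929 in SPF and at 0.0526, 0.0969, 0.0645 and 0.0943 in GF differentiated cells. The other, at chr19:55797375-55797649, stood at 0.283 and 0.420 against 0.423, 0.489, 0.528 and 0.455 (-0.123 ± 0.059, limma adjusted p = 0.0634). The former was near 0 in all 6 samples, and in the latter SPF lay below GF without a call. Single regions of other pathway genes were likewise not called. They lay in Smad1, a transcription factor of BMP signalling (-0.0464 ± 0.0482), Nfkb1, an NF-kB subunit (-0.114 ± 0.053, limma adjusted p = 0.0534), the adipogenic nuclear receptor gene Pparg (-0.0599 ± 0.0475) and the glycosyltransferase genes B3galt5 (-0.0680 ± 0.0400) and Galnt7 (0.0079 ± 0.0798). Nr3c2, the mineralocorticoid receptor gene, had 1 such region of 2 (-0.0094 ± 0.0672). Nfkb1 was an exception among the 6 regions at genes listed for NF-kB signalling or the sensing of microbes. The 5 others were lower in SPF differentiated cells, against 80.7% of all regions. They included Tnip1 (-0.524 ± 0.044), Tbk1 (-0.285 ± 0.043), Rnf31 (-0.215 ± 0.059) and Bcl3 (-0.209 ± 0.039). Nfkb1 was called without GF replicate 2 (limma adjusted p = 0.0395) and, with a difference of -0.184, without SPF replicate 2 (limma adjusted p = 0.0205). On the glycosylation list 3 of 5 regions were lower, at Galnt10 (-0.329 ± 0.047), St3gal3 (-0.315 ± 0.049) and Galnt12 (-0.157 ± 0.053), whose call was lost without SPF replicate 1 (limma adjusted p = 0.0641).

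Imprinted genes, of which only the copy from one parent is expressed, formed a group with few calls. The list of 40 such genes was collected after the values had been seen. It held 12 regions at 11 genes, and 1 of them (8.33%) was lower in SPF differentiated cells, against 80.7% of all regions. In the other 11 the 95% interval reached -0.1, so they are undecided, as at Inpp5f, a phosphoinositide phosphatase gene (-0.388 to 0.0947). Their SEs ran from 0.0595 to 0.116, above the median of 0.0504 over all regions. All of them but the region at Impact were shorter than the overall median of 525 bp. Of the 301 shortest regions of the table, 62.8% were called lower. Whether the low share at imprinted genes goes with length and SE rather than with imprinting was not tested. The called region is shared by Plg and Slc22a3 (-0.129 ± 0.040), was lost without SPF replicate 2, and Slc22a3 is known to be imprinted in placenta. The median difference of the 12 was -0.0803. Levels were intermediate, with medians over the 12 regions of 0.448 and 0.391 in SPF and of 0.470, 0.457, 0.549 and 0.520 in GF differentiated cells. Over all regions the medians were 0.336 and 0.320 in SPF and 0.577, 0.585, 0.585 and 0.567 in GF cells.

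Igf2r, which encodes a receptor that clears the growth factor Igf2, stood at 0.310 and 0.280 in SPF and at 0.229, 0.451, 0.552 and 0.274 in GF differentiated cells, in a region of 10 CpG sites within the window printed above (chr17:12769732-12769813, -0.081 ± 0.108). At Cdkn1c, an inhibitor of the cell cycle, SPF stood at 0.262 and 0.297 and GF at 0.266, 0.198, 0.302 and 0.338. At Mest, a hydrolase gene, SPF stood at 0.505 and 0.339 and GF at 0.393, 0.493, 0.496 and 0.448. The groups overlapped at these 3 genes. Peg10, a gene derived from a retrotransposon, had 3 regions that differed by -0.183 ± 0.114, -0.115 ± 0.089 and -0.079 ± 0.106, none called. The last 2 are shared with its neighbour Sgce. GF values were spread at several of these genes, and against the GFp libraries alone 4 of the 12 were called. In stem cells the median difference of the 12 was -0.178 with 7 called. It was -0.1 against the Co and -0.291 against the GFp stem cell libraries, whose medians over the 12 regions were 0.465 and 0.470, and 0.688 and 0.654.

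**Figure D5:**
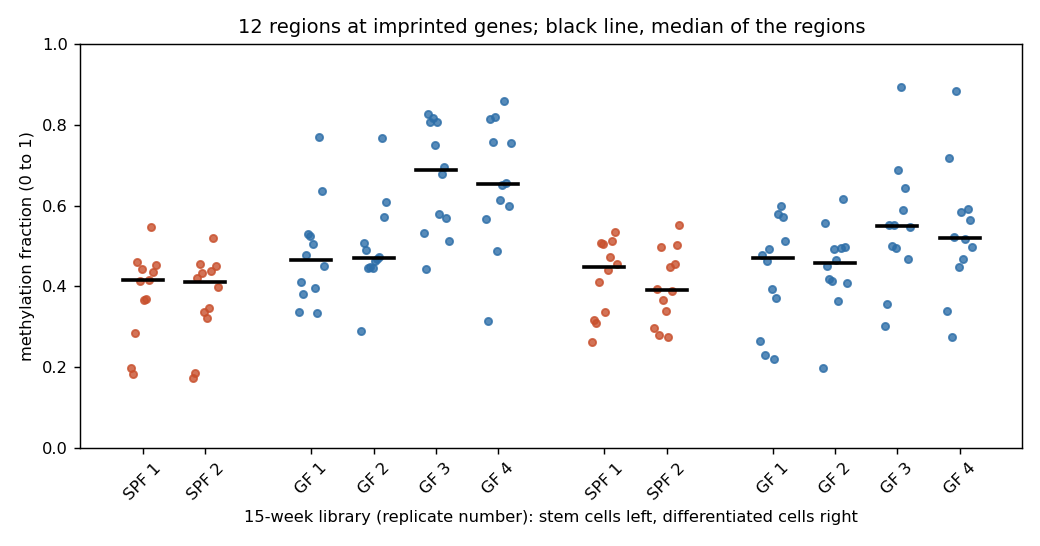
Methylation fraction (vertical axis, 0 to 1) of the 12 regions at imprinted genes in each 15-week library, stem cells at the left and differentiated cells at the right, SPF in orange and GF in blue; points are regions and the black line is their median. Medians in differentiated cells run from 0.391 to 0.549, with both SPF medians (0.448 and 0.391) below the lowest GF median (0.457). GF stem cell replicates 3 and 4 stand highest at 0.688 and 0.654.

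In a few regions the difference was larger in differentiated than in stem cells at an unadjusted p, none of them past adjustment (limma, adjusted p 0.826 or above). The smallest p belonged to an intergenic region (chr6:94889874-94890408) at 0.491 and 0.482 in SPF and at 0.876, 0.862, 0.916 and 0.882 in GF differentiated cells. Its SPF minus GF difference was -0.398 in differentiated and -0.168 in stem cells (difference of differences -0.230 ± 0.063, unadjusted p = 0.00167). Zfp1, a zinc finger gene, stood at 0.512 and 0.434 against 0.952, 0.943, 0.907 and 0.941, with -0.463 in differentiated and -0.268 in stem cells (unadjusted p = 0.00198). Ece1, which activates endothelins, differed by -0.516 and -0.368 (unadjusted p = 0.00977). In these 3 the SPF mean was 0.486 in differentiated against 0.694 in stem cells, 0.473 against 0.664 and 0.323 against 0.423, with no call between fractions. The other 3 of the 6 smallest p-values in this direction belonged to an intergenic region (chr13:74813098-74813553, unadjusted p = 0.00691), Thsd4 (unadjusted p = 0.0127) and Gm12216 (unadjusted p = 0.0137). Gm12216 went another way, with an SPF mean of 0.175 in differentiated and 0.208 in stem cells, while the GF mean was 0.766 against 0.642 and was called higher in differentiated cells (0.123, limma adjusted p = 0.0298).

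Between the cell fractions of SPF or of GF mice few regions were called different. In SPF mice limma called 0 regions different between differentiated and stem cells (131 at an unadjusted p under 0.05). In GF mice it called 83 lower (6.95%) and 14 higher (1.17%) in differentiated cells. The 2 counts are not alike, since SPF mice had 2 libraries a fraction and GF mice 4. The 97 calls in GF mice came to 20 within the Co and 35 within the GFp libraries and to 43 without differentiated replicate 3. The regions not called in the SPF minus GF comparison had a median differentiated minus stem value of 0.0265 in SPF and -0.0934 in GF mice, against -0.0229 and -0.0155 in the called ones; these classes rest on the same differentiated values. At 3 weeks, with only 2 libraries a group, 1 of the 1195 regions (0.0837%), in Tmsb10, was lower in SPF differentiated cells. Both GF differentiated libraries of that age went against their sex labels. Over all regions the medians in differentiated cells were 0.598 in SPF and 0.63 in GF mice at 3 weeks, and 0.332 and 0.577 at 15 weeks. In the called regions they were 0.622 and 0.662 at 3 weeks, and 0.323 and 0.610 at 15 weeks. The calls rest on these 15-week values, so the wider gap at 15 weeks in called regions is partly fixed by the choice.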

How the data were processed

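Libraries were made from genomic DNA with the xGen Methyl-Seq kit after bisulfite treatment, per the labels' protocols. Per the submitters' processing notes, the aligner was BSMAP 2.90 and the build mm10. The sources used here do not give how reads were trimmed and filtered or how regions were called and tested. The authors deposited 1 methylation fraction (0 to 1) per region and sample, with no read counts. The deposited table also holds the authors' p-value and difference per region, used here only to describe the table. Every region has 10 to 49 CpG sites, and a table limited to such regions describes those regions and not the genome. Coordinates are printed as deposited, and whether they count from 0 or 1 is not stated.

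Groups came from the labels. Replicates of the compared groups lay 0.0547 to 0.0815 apart on average over regions, with 3 identical values at most, and none was treated as a duplicate. The fractions of all 20 samples, in 8 groups that share 1 estimate of spread per region, were fitted with limma 3.58.1 (R 4.3.3). P-values were adjusted by Benjamini-Hochberg over 1195 regions, with a threshold of 0.05. Means over regions were compared with an exact two-sided permutation test (scipy 1.17.1). In data simulated from this comparison, with 50 of 1195 regions changed at each size, the fit called 15 at 0.1, 31 at 0.2, 48 at 0.3 and 48 at 0.4, and 7 of 995 unchanged regions. For the difference between fractions it called 0, 14, 36 and 44. Simulated stem cells had no SPF minus GF difference. More changed regions, as in the real SPF minus GF comparison of differentiated cells, raise the shares called there. For the difference between fractions the real data called 0 regions, and no such rise is shown.

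The members, the 17 gene lists and the tests were chosen with earlier results of these data known, and the list of imprinted genes after the values were seen. Named genes are the 12 largest called differences without overlap, 1 a gene; the 8 regions with the largest stem cell difference among those with intervals above -0.1; the 5 highest differences; the 6 smallest interaction p-values in each direction; genes with many or mixed regions; up to 4 regions a list with every region of a list not called; regions at promoter windows, on chromosome X or at imprinted genes; and genes named in an earlier account. Regions at promoter windows and on chromosome X, and H2-Ab1, Psmb9, Pigr, Tnf, Tnfsf10 and Tcf7l2, were taken up after their values were seen. Alternatives were the logit scale, a trended robust prior, a replicate block, a block for shared identifiers and sex as a covariate. Sex was taken from the labels, also for the libraries that went against them. Others were the compared groups alone, GF libraries of 1 identifier style, regions with 15 or more CpG sites and each library left out. The alternative of chromosomes 1 to 19 only was chosen after seeing the data. No genome was given, so region sequences are not printed, and promoter windows are from RefSeq (GRCm38.p6).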

Additional observations from a re-analysis of the deposited data

Results flagged for a closer look

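In 125 groups of 4 GF differentiated values at named regions, 6 had 1 library standing apart from the other 3; chance flags about 1 in 20 such groups. At Lnx2, a ubiquitin ligase gene, GF replicate 3 stood at 0.412 with the others between 0.566 and 0.572. At Muc13 GF replicate 1 stood at 0.340 with the others between 0.509 and 0.541. At one of the regions of Nox1 GF replicate 3 stood at 0.803 with the others between 0.845 and 0.851. At Ifitm3 the same library stood at 0.407 with the others between 0.298 and 0.316. In all 4 genes every GF value still lay above both SPF values.

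The other 2 are the X-linked regions used to check the sex labels. At Pwwp3b GF replicate 2, labelled female, stood at 0.346 with the others between 0 and 0.00885, and at the intergenic region of chromosome X it stood at 0.758 with the others between 0 and 0.0465. The others include replicate 4, which is labelled female as well. Whether that label or the library is at fault was not tested.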

How the results depend on the processing

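The count of regions lower in SPF (964) was 976 on the logit scale, 976 with the compared groups alone, 959 with sex as a covariate, 962 on chromosomes 1 to 19 and 791 to 949 with 1 library left out. With a replicate block it was 933; the numbers did not pair the samples (correlation of same-numbered deviations -0.0279 and 0.114, over 2 pairs only). Regions higher in SPF numbered 0, but 1 with the compared groups alone, 3 against the GFp libraries alone and 0 to 1 with a library left out (1 without either SPF library). Regions with the interval above -0.1 numbered 13, but 26 with the compared groups alone, 20 with the replicate block, 1 of those with 15 or more CpG sites and 8 to 16 with a library left out (8 without SPF replicate 2). With 15 or more CpG sites the median was -0.225 (from -0.213) and the difference of sample means -0.246 (from -0.222). Differentiated minus stem calls were 3 (from 0) in SPF mice with a trended robust prior. In GF mice they were 55 (from 97) on the logit scale, 20 and 35 within the Co and GFp styles and 43 to 127 with a library left out (45, 63 and 43 without differentiated replicate 1, 2 or 3, and 62 and 60 without stem replicate 1 or 4). At imprinted genes 1 region was called, but 4 against the GFp libraries and 0 to 2 with a library left out (0 without SPF replicate 2, 2 without GF replicate 1 or 3). Of 1837 recomputed values for 167 named regions 1760 kept their direction and side of the threshold, 43 lost and 34 gained a call, and 0 reversed. The causes were not tested. Unknown read depth and 2 SPF samples limit all of these.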

Other observations

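Libraries of the compared samples correlated at 0.902 across the 1195 regions within the SPF pair, at 0.853 to 0.924 between GF libraries and at 0.663 to 0.736 between SPF and GF libraries. All points of such a correlation share libraries and regions. Within libraries of 1 labelled sex, the SPF value lay below both GF values in 1100 regions in those labelled male and in 1101 in those labelled female. The latter include GF replicate 4, which went against its label.

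In 74 regions both SPF values lay below all 4 GF values without a call by limma, and in 26 called regions the groups overlapped.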
